A study of Mus musculus with 6 samples.

Results

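AP-1 is a transcription factor built from pairs of FOS family proteins (encoded by Fos, Fosb, Fosl1 and Fosl2) and JUN family proteins (encoded by Jun, Junb and Jund), and Atf3 encodes a related stress-induced factor that can pair with JUN proteins. These 8 genes were followed between bulge epithelial cells of mouse vibrissa follicles cultured in NFFSE medium, which holds EGF, and in NFFS medium, which does not. They were taken by name, as every probe set that the platform annotation lists under exactly 1 of the 8 symbols, which gave 12 probe sets of 45037 tested and 8 genes of 18193. The cells came from mice of 7 to 8 weeks, in a strain not given for the arrays in the sources used here, and were grown for 6 days in atelocollagen gel. NFFSE medium held EGF at 50 ng/ml on top of Noggin, FGF-7, FGF-10 and SAG, a hedgehog agonist, and NFFS medium held the same 4 factors without EGF. Each medium had 3 arrays, labelled as biological replicates, and whether these came from separate animals is not given in the sources used here, so that p-values measure the spread between these cultures. The series design states that cells were divided between the media in each of 3 repeats. The main fit did not use this pairing, and a fit with the replicate number as a block was an alternative. The values are MAS5 signals, in which the probes of a probe set are combined into 1 intensity on a linear scale, and differences are NFFSE minus NFFS on the log2 scale.

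The FOS proteins bind DNA only with a partner, for which the JUN proteins serve, and the pair grips the letters TGACTCA (the AP-1 site) or the related TGACGTCA (the CRE) through 2 basic helices joined by a leucine zipper. Fos, Fosb, Jun, Junb and Atf3 are immediate early genes, whose RNA rises within minutes of a growth factor or stress and is soon degraded, whereas Fosl1 and Fosl2 respond later. EGF reaches them through its receptor, the RAS-ERK kinases and the factor SRF with its ELK partners. In the epidermis AP-1 drives genes of proliferation, wound repair, inflammation and terminal differentiation.

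Of the 8 genes, 4 were higher in NFFSE (Fosl1, Atf3, Junb and Fos) and 0 lower, and 4 missed the threshold (Fosb, Jun, Jund and Fosl2), where a gene was called at an adjusted p under 0.05 (limma, a linear model with a shared estimate of the spread, Benjamini-Hochberg over all genes). Of all genes tested, 11.0% were called higher and 15.2% lower, 26.2% in all. The same 4 members had every NFFSE array above every NFFS array and 0 had them below, where this held for 18.5% and 22.0% of all genes. Junb and Atf3 were among the genes that the study printed from these arrays, and their direction here adds no independent evidence. The median log2 difference was 1.01 for the 8 genes and -0.011 for all genes. With the replicate number as a block 5 members were called higher, Fosb being added, beside 2171 higher and 2967 lower of all 18193 genes. At the level of single probe sets 6 of 12 were called higher and 0 lower, where 7.69% of all probe sets were called higher and 12.7% lower (20.4% in all). In bulk cultures, fewer cells with a transcript and less of it in each cell cannot be told apart.

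**Figure D1:**
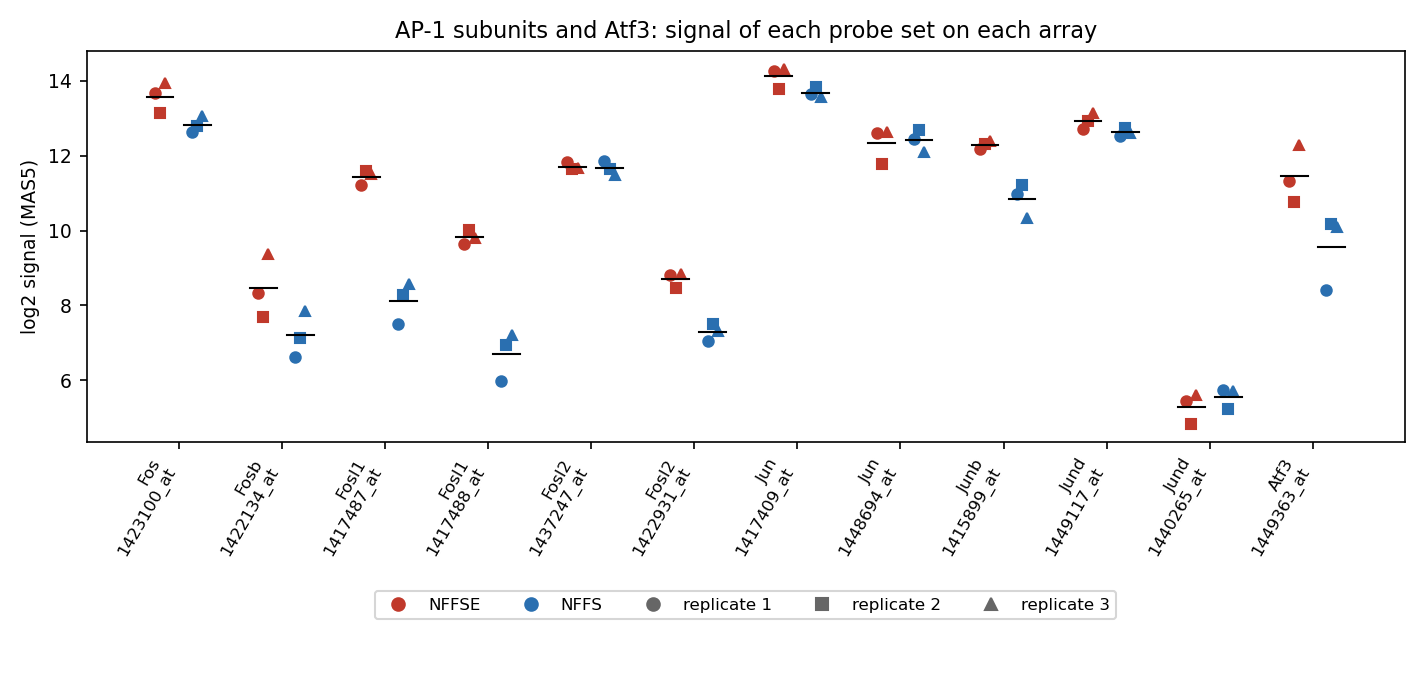
Log2 MAS5 signal (vertical axis) of the 12 probe sets of the 8 genes on each of 6 arrays, NFFSE in red and NFFS in blue, with the marker shape giving the replicate number and black lines the mean of 3 arrays. Both Fosl1 probe sets, Junb, Atf3, Fos and probe set 1422931_at of Fosl2 have all red points above all blue points, and the other probe sets overlap.

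Fosl1, which encodes FRA1, a FOS protein of proliferating and migrating epithelia that lacks the transactivation domain of FOS, showed the largest difference of the 8 genes. Its brighter probe set, 1417487_at, gave signals of 2388, 3079.5 and 2922 on the NFFSE arrays (replicates 1 to 3), against 182, 309.9 and 380.3 on the NFFS arrays. The lowest NFFSE array thus lay far above the highest NFFS array. The mean difference was 3.32 on the log2 scale (SE 0.24, adjusted p = 8.0e-06, limma), or 10.01-fold, the rank 88 among 18193 genes ordered from the highest to the lowest. The dimmer probe set of Fosl1, 1417488_at, gave 798, 1035 and 887 in NFFSE, against 63.4, 122 and 147 in NFFS. It differed by 3.11 on the log2 scale (SE 0.28, adjusted p = 4.1e-05, limma over all probe sets) and ranked the arrays of each medium in the same order as the brighter one. In both media the lowest array was replicate 1, and the call was kept in all 15 alternatives tried on the genes, with log2 differences of 3.02 to 3.55.

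Fos, the founding member and a target of SRF and ELK factors, was bright in both media. Its signal was 13059.6, 8945 and 15683 in NFFSE, against 6306, 7059 and 8589.9 in NFFS. The media did not overlap, but NFFSE replicate 2 lay only just above the highest NFFS array. Fos thus differed by 0.75 on the log2 scale (SE 0.19, adjusted p = 0.016, limma), or 1.69-fold. This call was lost in 7 of 15 alternatives, with adjusted p-values of 0.0022 to 0.16 over all 15 and log2 differences of 0.55 to 0.98, and it ended without NFFSE replicate 1 (0.059), NFFSE replicate 3 (0.065) or NFFS replicate 1 (0.064).

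Fosb, which encodes a FOS protein induced together with Fos, was much dimmer. Its signal was 321, 207 and 666 in NFFSE, against 97.7, 141 and 232 in NFFS. Replicate 2 of NFFSE lay below replicate 3 of NFFS, so the media overlapped, although NFFSE was higher in 3 of 3 pairs of the same replicate number. Its mean difference of 1.26 on the log2 scale missed the threshold (SE 0.42, adjusted p = 0.051, limma), and with the replicate number as a block it was called (adjusted p = 0.0036, limma). It was also called without NFFSE replicate 2 (log2 difference 1.65, adjusted p = 0.023) or NFFS replicate 3 (1.59, adjusted p = 0.029). Without NFFSE replicate 3 its difference was 0.81 (adjusted p = 0.18).

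Fosl2, which encodes FRA2, a FOS protein of differentiating keratinocytes, was read differently by its 2 probe sets. The brighter, 1437247_at, gave 3611, 3177 and 3279.9 in NFFSE, against 3717, 3202 and 2858 in NFFS. They differed by 0.049 on the log2 scale (95% confidence interval -0.22 to 0.31, adjusted p = 0.82, limma). The arrays of the media were thus interleaved. The dimmer, 1422931_at, which the annotation ties to a RefSeq transcript, gave 446, 353 and 459 in NFFSE, against 133, 183 and 160.3 in NFFS. Here every NFFSE array lay above every NFFS array, and the log2 difference was 1.40 (SE 0.18, adjusted p = 4.4e-04, limma over all probe sets), a call kept in all 14 alternatives of the probe set fit. The probe set that the annotation ties to an expressed sequence tag, the brighter one, was called in 0 of those 14. With the mean of both probe sets Fosl2 was called higher, at a log2 difference of 0.73 (adjusted p = 0.0019, limma). Where in the transcript each probe set lies was not examined here.

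**Figure D2:**
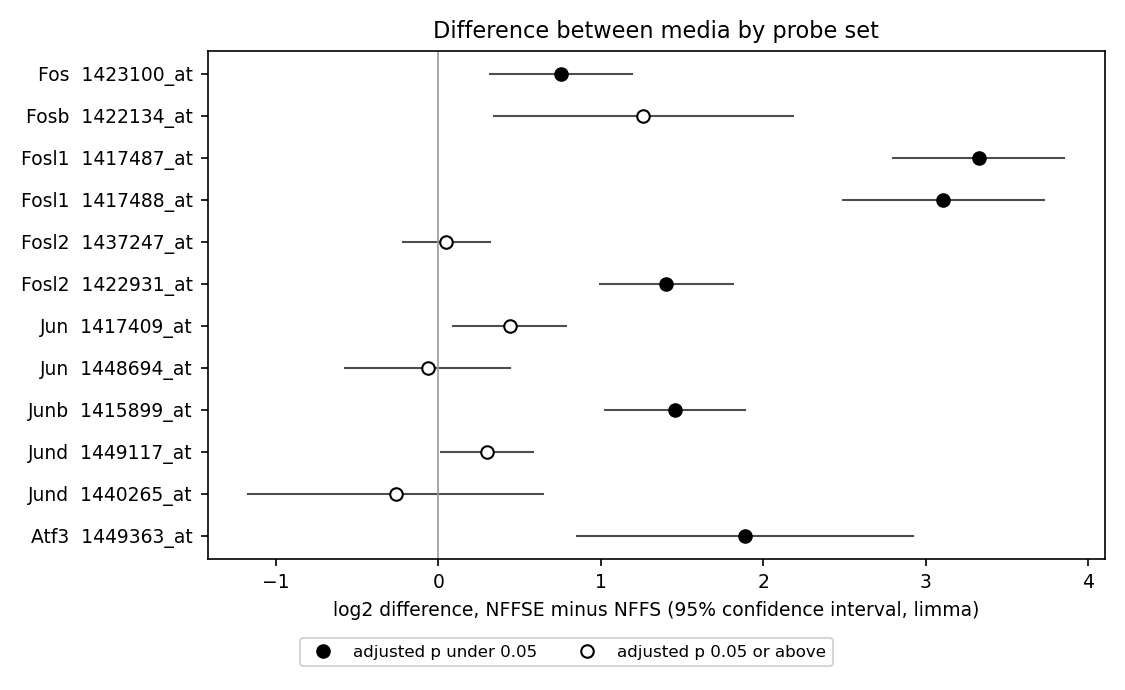
Log2 difference between media (horizontal axis, NFFSE minus NFFS) of the 12 probe sets, with 95% confidence intervals from limma over all probe sets and filled points for an adjusted p under 0.05. The Fosl1 probe sets lie at 3.32 and 3.11, and those of Fosl2 lie apart, at 0.049 and 1.40.

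Among the JUN family, Junb, whose protein can restrain proliferation and whose loss in mouse epidermis leads to skin inflammation, was the only one called. Its signal was 4628, 5113 and 5374 in NFFSE, against 2006, 2381 and 1292 in NFFS. The NFFSE arrays lay close together and well above all NFFS arrays. The log2 difference was 1.45 (SE 0.19, adjusted p = 3.5e-04, limma), and the call was kept in all 15 alternatives (1.20 to 1.66). In the fit over probe sets it was lost only with the methods' t-test after adjustment (adjusted p = 0.051).

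Jun, which encodes the main partner of FOS and in mouse skin sustains expression of the EGF receptor, had one of the brightest signals on these arrays, with a mean at the 99.2th percentile of genes. Probe set 1417409_at gave 19572, 14109 and 20565 in NFFSE, against 12744, 14673 and 12190.5 in NFFS. Replicate 2 of NFFSE fell among the NFFS arrays, while the other NFFSE arrays lay above them. Jun differed by 0.44 on the log2 scale (95% confidence interval 0.10 to 0.78, adjusted p = 0.060, limma). It was called without NFFSE replicate 2 (0.61, adjusted p = 0.014) or NFFS replicate 2 (0.52, adjusted p = 0.039). The other probe set of Jun, 1448694_at, gave 6222, 3527 and 6392 in NFFSE, against 5577, 6609.6 and 4369.9 in NFFS. Its log2 difference was -0.067 (adjusted p = 0.89, limma over all probe sets), with overlapping media, and turned to 0.21 without NFFSE replicate 2.

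Jund, which encodes the JUN protein that is present in resting cells and is linked to slow growth, had the smallest difference of the JUN family. Probe set 1449117_at gave 6754, 7718 and 9015 in NFFSE, against 5892, 6801 and 6282 in NFFS. NFFSE replicate 1 lay below NFFS replicate 2, so that the media overlapped. The log2 difference was 0.30 (95% confidence interval 0.025 to 0.58, adjusted p = 0.11, limma). The dim probe set 1440265_at gave 43.7, 28.5 and 48.8 in NFFSE, against 53.0, 37.3 and 52.9 in NFFS, with a log2 difference of -0.26 (adjusted p = 0.73, limma over all probe sets). The upper bounds of both brighter probe sets, 0.78 for Jun and 0.58 for Jund, lay below the difference of Junb.

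Atf3, whose product binds CRE-like sites as a homodimer or with JUN, was higher in NFFSE but spread widely. Its signal was 2567, 1738 and 4947 in NFFSE, against 343, 1165 and 1089 in NFFS. All NFFSE arrays lay above all NFFS arrays, by a narrow gap between NFFSE replicate 2 and NFFS replicate 2. Atf3 differed by 1.89 on the log2 scale, or 3.70-fold (SE 0.47, adjusted p = 0.013, limma). It was lost in 4 of 15 alternatives, among them the one without NFFSE replicate 3 (1.48, adjusted p = 0.054), and the adjusted p-values over all 15 were 0.0021 to 0.17.

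The members differed in how their arrays spread within a medium. In NFFSE, Atf3 and Fosb spanned 2.85-fold and 3.21-fold between their lowest and highest array, against 1.16-fold for Junb and 1.29-fold for the brighter probe set of Fosl1. Replicate 2 was the lowest NFFSE array for 5 of the 8 genes (Fos, Fosb, Fosl2, Jun and Atf3) and replicate 3 the highest for 6, where 33.5% and 37.7% of all genes had their lowest and highest NFFSE signal in these arrays. Fosl1, Junb and Jund had their lowest NFFSE array in replicate 1. This order was noticed in the values and was not tested.

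To see whether members changed unequally, the log2 signal of 1 member was set against that of another within each array, a measure in which the scaling of the array cancels. Only its change between media can be read, since signals of different probe sets are not on a common scale. Fosl1 minus Fos was -2.45, -1.54 and -2.42 on the NFFSE arrays, against -5.12, -4.51 and -4.50 on the NFFS arrays. The change was 2.57, and the arrays of the media did not overlap. Fosl1 minus Fosl2 changed by 3.28, or by 2.49 with the mean of their probe sets. The value of 3.28 reads Fosl2 from its brighter probe set. It would be smaller with the dimmer one, which itself differed by 1.40 between media. Junb minus Jun changed by 1.02 and Junb minus Jund by 1.15. None of these 4 measures overlapped between media. Each gave p = 0.1 in an exact permutation test (two-sided, n = 3 each, 0.1 after Benjamini-Hochberg over the 4). This is the smallest that 3 arrays against 3 allow, so that this design cannot reach the threshold. All 4 set Fosl1 or Junb, which were called in all 15 alternatives, against another member, so they are not separate results. Other pairs of members are not given, and the lack of overlap describes these pairs only. The same measure between the 2 probe sets of 1 gene (dimmer minus brighter) changed by 1.35 for Fosl2, -0.51 for Jun, -0.22 for Fosl1 and -0.56 for Jund (exact permutation test, n = 3 each, p = 0.1 for Fosl2, Jun and Fosl1 and 0.2 for Jund, adjusted 0.13 and 0.2, a comparison chosen after the values were seen).

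**Figure D3:**
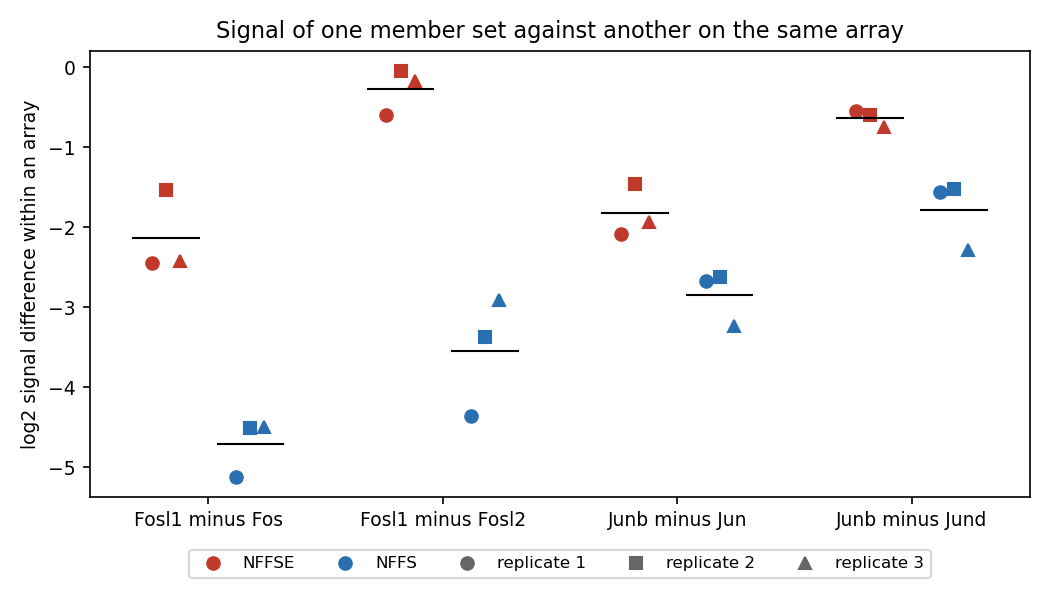
Difference of log2 signals between 2 members on the same array (vertical axis) for 4 pairs, NFFSE in red and NFFS in blue, with the marker shape giving the replicate number and black lines the mean of 3 arrays. Each member is read from its brightest probe set. In each pair all NFFSE points lie above all NFFS points, by a change in the mean of 1.02 (Junb minus Jun) to 3.28 (Fosl1 minus Fosl2).

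Because immediate early genes are themselves targets of CREB, ATF and AP-1 factors, the windows around their start sites were searched, from 250 bases before to 50 after, in the RefSeq promoter table of GRCm38.p6, in which 7 of the 8 genes were found (not Fosl1). The letters TGACG, with which the CRE begins, were in 4 of the 7 windows on either strand, those of Fos, Fosb, Junb and Atf3. They were in 20.8% of all 32851 windows of the table. Near matches to the CRE without these letters, such as TGACATCA in the Jun window, were not searched for. The full TGACGTCA was in 0 of the 7 (1.79% of all windows), TGACTCA in 0 (5.20%) and the CArG box, the site of SRF, in 0 (1.63%). TATAAA was in 2, Fos and Junb (13.6%). A match is a run of letters and not a shown site of binding, and its absence says only that the letters are not in this window. The windows of the 3 called members that the table holds are printed 5′ to 3′ on the strand of the gene, with TGACG or its complement in capitals, at chr12:85473640-85473939 (plus strand) for Fos, chr8:84978699-84978998 (minus strand) for Junb and chr1:191183284-191183583 (minus strand) for Atf3.
Fos: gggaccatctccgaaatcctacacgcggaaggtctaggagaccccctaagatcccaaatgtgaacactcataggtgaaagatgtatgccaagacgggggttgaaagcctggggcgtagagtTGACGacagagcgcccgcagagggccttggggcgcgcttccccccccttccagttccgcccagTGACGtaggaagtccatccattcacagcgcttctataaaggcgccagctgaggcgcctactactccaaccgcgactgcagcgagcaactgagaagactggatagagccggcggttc
Junb: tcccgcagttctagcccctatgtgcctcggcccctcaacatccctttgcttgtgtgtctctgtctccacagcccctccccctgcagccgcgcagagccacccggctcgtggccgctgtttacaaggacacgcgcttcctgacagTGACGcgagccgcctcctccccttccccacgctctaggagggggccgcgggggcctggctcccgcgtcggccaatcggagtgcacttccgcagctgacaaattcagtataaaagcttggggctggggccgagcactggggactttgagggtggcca
Atf3: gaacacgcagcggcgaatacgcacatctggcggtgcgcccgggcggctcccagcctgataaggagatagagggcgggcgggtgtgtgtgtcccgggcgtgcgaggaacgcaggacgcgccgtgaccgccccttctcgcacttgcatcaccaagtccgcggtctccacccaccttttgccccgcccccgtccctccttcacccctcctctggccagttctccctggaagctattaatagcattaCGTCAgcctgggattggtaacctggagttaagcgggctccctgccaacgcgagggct
In Fos the matches began 129 and 66 bases before the annotated start, in Junb 106 bases before and in Atf3 7 bases before, where the match is on the other strand (CGTCA as printed). In Fos a TATAAA lay 33 bases before the start, and in Junb the TATAAA began at the annotated start itself.

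The genes listed here as AP-1 targets in epithelia were higher in NFFSE with few exceptions. Of 22 listed, 20 were measured, of which 17 were higher, 0 lower and 3 did not pass the test, against 11.0% of all genes called higher. Their median log2 difference was 2.47. The list was chosen with earlier results of these data known, so its count beside that of all genes describes the list and tests nothing. S100a8, an alarmin of stressed epidermis, had signals of 12105, 9395 and 9529.9 in NFFSE, against 122, 352 and 62.2 in NFFS, a log2 difference of 6.21 (adjusted p = 1.3e-05, limma). S100a9, its partner, had 3753, 2636 and 2684 in NFFSE, against 27.7, 90.7 and 20.6 in NFFS, where replicate 3 was at background, taken as the highest signal of the TrpnX control probe sets (22.7). It differed by 6.32 on the log2 scale (adjusted p = 7.8e-06, limma). The size of both differences moved with single NFFS arrays. Without NFFS replicate 2 they were 6.88 for S100a8 and 6.97 for S100a9, and without NFFS replicate 3 they were 5.63 and 5.90. Mmp10, which encodes the matrix-degrading stromelysin-2, was 20.7-fold higher. Ivl, which encodes involucrin of the cornified envelope and carries a well-known AP-1 site in humans, was 6.23-fold higher (a log2 difference of 2.64, and 3.74 with the mean of its probe sets). Both were called in all 15 alternatives. The 3 that did not pass were Plaur, the urokinase receptor (log2 difference 0.60, adjusted p = 0.30, and 0.032 with the replicate block), Hmox1, heme oxygenase (0.39, adjusted p = 0.155), and Itga5, an integrin subunit near background (0.32, adjusted p = 0.75). Which factor acts on these genes was not measured.

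Other factors of the same DNA-binding class (bZIP) were called in both directions. Of 27 listed, 25 were measured, with 7 higher, 3 lower and 15 not passing, and a median log2 difference of 0.28, where 11.0% of all genes were called higher and 15.2% lower. With the arrays centered on their medians the split was 11 higher and 2 lower, but that of all genes moved as well, to 2916 higher and 1784 lower of 18193, against 2002 and 2771 as deposited. The small MAF genes, whose products lack a transactivation domain, included Maff (3.63-fold higher, adjusted p = 4.1e-05, limma) and Mafk (2.28-fold higher). Nfil3, a repressor of the clock and of cytokine genes, was 1.78-fold higher. Creb5, a CREB family factor, had signals of 264, 237 and 435 in NFFSE, against 4213, 2976 and 4551 in NFFS. It was thus 12.8-fold lower in NFFSE (adjusted p = 4.1e-06, limma), with no overlap. On the log2 scale Creb5 differed by -3.68, and by -2.85 when its probe sets were averaged. Atf2, a partner of JUN, was 1.78-fold lower, and Creb1, which binds the CRE, was 1.35-fold lower, but its call was lost in 9 of 15 alternatives, and taking the mean of its probe sets turned the log2 difference to 0.44 (adjusted p = 0.27).

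The list of upstream kinases and SRF partners, which also held Fbxw7, Gsk3b and Cops5, was called in both directions. Because Fbxw7 acts against JUN, the counts of this list do not give a direction of input to AP-1. Of 29 listed, 22 were measured, with 5 higher, 8 lower and 9 not passing, and a median log2 difference of -0.22, beside the same 11.0% and 15.2% of all genes. With the arrays centered on their medians it was 5 higher and 4 lower, beside the 2916 and 1784 of all genes. The kinases that were higher were Map2k1 (2.05-fold, adjusted p = 0.052 with the methods' t-test) and Map2k2 (1.44-fold, a call lost in 6 of 15 alternatives), which activate ERK, Map2k3 (1.81-fold), which activates p38, and Mapk9 (1.77-fold), which encodes a JUN kinase. Averaging its probe sets ended the call of Mapk9 (log2 difference 0.42, adjusted p = 0.195). Elk3, an SRF partner, was 1.86-fold higher (adjusted p = 1.1e-04, limma, and 0.064 with the mean of its probe sets). Fbxw7, which targets JUN for degradation, was 2.18-fold lower (adjusted p = 1.6e-04, limma), with signals of 593, 565 and 664 in NFFSE, against 1492, 1329 and 1158 in NFFS. Elk4, another SRF partner, was 2.19-fold lower in its brightest probe set but had a log2 difference of 0.024 (adjusted p = 0.96) with the mean of its probe sets. Map3k1, Map3k5, Elk1, Nras, Braf and Gsk3b made up the other lower genes.

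**Figure D4:**
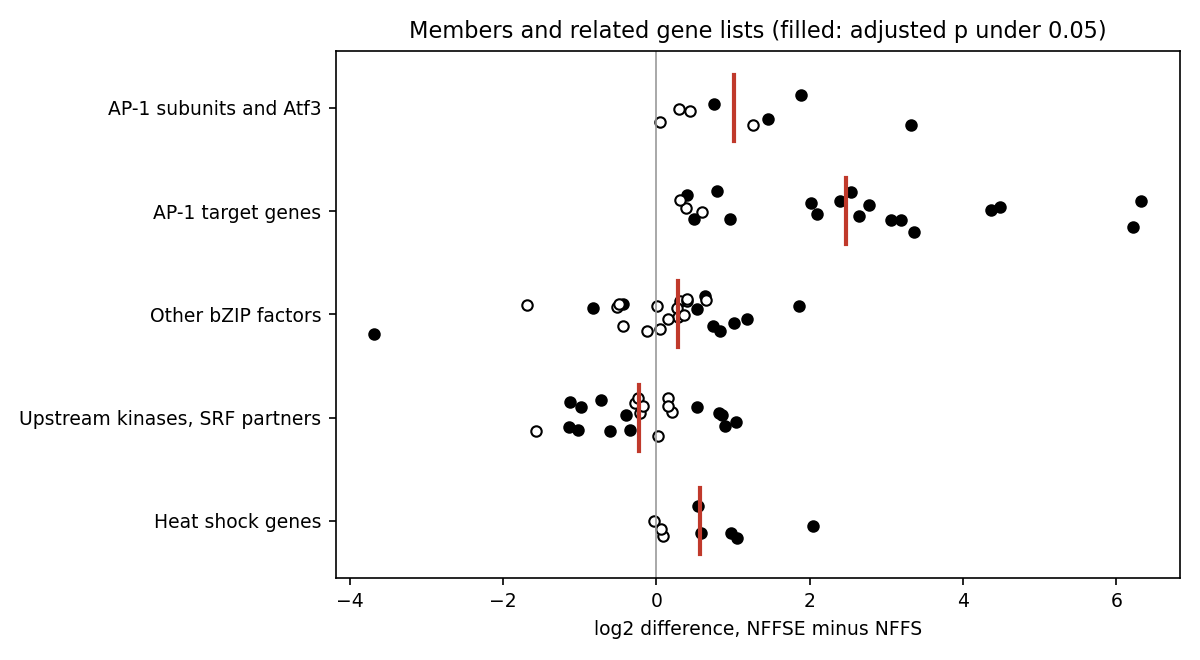
Log2 difference between media (horizontal axis, NFFSE minus NFFS) of the measured members of 5 gene lists, each point 1 gene at its brightest probe set, filled where the adjusted p was under 0.05 (limma), with the median of the list as a red bar. The medians are 1.01 for the AP-1 subunits and Atf3, 2.47 for AP-1 targets, 0.28 for other bZIP factors, -0.22 for upstream kinases and SRF partners and 0.57 for heat shock genes, and vertical scatter within a row has no meaning.

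Since immediate early genes also respond to stress during handling, heat shock genes were read beside them. Of 8 measured, 5 were higher in NFFSE and 0 lower, with a median log2 difference of 0.57, where 11.0% of all genes were called higher and 15.2% lower. Hspa1a, an inducible chaperone, was 4.11-fold higher (7939, 9937 and 11944 in NFFSE, against 2501, 2359 and 2308 in NFFS). Hsph1 (2.07-fold), Hspb1 (1.96-fold), Hspd1 (1.50-fold) and Hspa1b (1.46-fold, a call lost in 5 of 15 alternatives) were also higher, whereas Hspa8, Dnajb1 and Hspe1 had log2 differences of 0.091, 0.055 and -0.024. Their part in the differences of the AP-1 genes was not tested. Of 6 fibroblast and dermal papilla markers, 3 were lower in NFFSE (Thy1, Col1a2 and Vim). The others missed the threshold, with log2 differences of 1.40 for Pdgfra, 0.28 for Col1a1 and 0.062 for Col3a1. The summed signal of all 6 was 349 to 420.3 in NFFSE, against 538 to 744 in NFFS. All 5 leukocyte, 3 endothelial and 4 melanocyte markers missed the threshold. Ptprc was at background on 1 NFFSE and all 3 NFFS arrays, and Cd3e and Mlana on all 6. The summed leukocyte markers were 265 to 367 in NFFSE and 304 to 380.3 in NFFS, the endothelial 201 to 253 in NFFSE and 147 to 223 in NFFS, and the melanocyte 179 to 239 in NFFSE and 175 to 206 in NFFS. Of 8 epithelial and bulge markers, 3 were higher (Cd34, Itga6 and Krt14) and 4 lower (Krt15, Lhx2, Sox9 and Tcf7l1) in NFFSE, and all were above background on every array. RNA integrity was read from the Gapdh controls, as log2 signal at the 3′ end less that at the 5′ end, which was -0.38 to -0.36 in NFFSE, against -0.63 to -0.60 in NFFS. The same measure for Actb was 0.26 to 0.29 in NFFSE and 0.26 to 0.37 in NFFS, so that it overlapped between media and its higher values were in NFFS, the opposite of Gapdh. The part of RNA integrity in the differences of the AP-1 genes was not tested.

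By likeness of profile, the genes nearest to Fosl1, the called member with the largest difference, were Ltb4r1, a leukotriene B4 receptor, Prelid2 and Lce3c, a late cornified envelope gene. Their Euclidean distances, on log2 signals centered over the 6 arrays, were 0.42, 0.68 and 0.70, with Pearson correlations of 0.998, 0.988 and 0.990. Nearest to Fos, the called member with the smallest difference, were Mrpl33, a mitochondrial ribosomal protein, Vasn and Slco2b1, at distances of 0.23, 0.27 and 0.38. These values describe 6 arrays that share the split between media, among 10908 genes searched.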

How the data were processed

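Bulge epithelial cells cultured in NFFSE or NFFS medium were measured on 6 Affymetrix Mouse Genome 430 2.0 arrays, 3 for each medium. Values were deposited as the authors' probe set intensities from MAS5, whose version is not given in the sources used, brought by the authors to a common trimmed mean of 500 per array, without the lowest and highest 2% of signals. The scaling was checked on the values, and the median signal was 56.5 to 65.0 in NFFSE and 66.5 to 70.6 in NFFS. Background correction and probe set summary could not be changed. The precision is limited by the number of arrays.

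Of 45101 probe sets, 64 controls were left out. A gene was represented by the brightest of its probe sets (by mean log2 signal), among 34945 probe sets with 1 symbol. The fit to log2 values used limma 3.58.1 (R 4.3.3) with an intensity trend, as NFFSE minus NFFS, over 18193 genes and, for all probe sets of the members, over 45037 probe sets, and the code was tested on simulated data. The series design states that cells were divided between the media in each of 3 repeats, and the replicate numbers were taken to mark these repeats. Deviations of same-numbered arrays correlated at 0.066, 0.042 and 0.037, and with other numbers at -0.041 to -0.0018. The replicate block was an alternative. Others were the scaling, a floor, 16 added to the signals, a filter at the 40th percentile, no intensity trend, the methods' t-test, the choice of probe set and leaving out each array. Named are all members and, of each other list, the called genes with the smallest p (up to 4) and those that complete a count of 5 or fewer. Other genes were named after their values were seen. The members and lists were chosen with earlier results of these data known, and list descriptions are counts and medians without a set test.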

Additional observations from a re-analysis of the deposited data

How the results depend on the processing

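The count of 4 called members was 7 with the arrays centered on their medians (Fosl2 was the exception), a scaling that moved the median difference of all genes from -0.011 to 0.19, so that Jund at 0.50 and Jun at 0.64 are to be read against that shift. It was 2 (Fosl1 and Junb) with the methods' t-test, with low signals raised to a floor and when the spread was fitted with no trend. No member signal was low enough to be raised by the floor, and the log2 differences of Fos (0.75) and Atf3 (1.89) stayed the same with it. Without 1 array the count was 2 (without NFFSE replicate 3) to 6 (without NFFSE replicate 2), and with the replicate block 5, with Fosb. The block changed no other call among the members. It was 6 with the filter on dim genes, with Fosb and Jun. With quantile normalization the count stayed at 4, but Fos was lost (adjusted p = 0.051, limma) and Fosb was called in its place (adjusted p = 0.0355, limma). With Fosl2 read from its dimmer probe set the count was 5. The probe set count of 6 was 3 with the methods' t-test, 9 with centered arrays and 4 to 8 without 1 array. Upstream genes, 13 called, were 7 without the trend, 6 with the methods' t-test, 7 with the mean of probe sets and 9 to 14 without 1 array. Target genes stayed at 12 to 18 called, other bZIP factors at 7 to 13 and heat shock genes at 4 to 5. Fosl1 minus Fosl2 was 2.49 with the mean of probe sets and 2.87 to 3.59 without 1 array.

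Signs that turned were all of values that missed the threshold on turning. Fosl2 ranged from -0.042 to 0.15 without 1 array (-0.0054 without NFFSE replicate 1 and -0.042 without NFFS replicate 3). Jun probe set 1448694_at ranged from -0.22 to 0.21 without 1 array, and was 0.13 with centered arrays, 0.21 without NFFSE replicate 2 and 0.074 without NFFS replicate 2. With the mean of probe sets, Creb1 was 0.44, Elk4 0.024 and Itga5 -0.083, and Itga5 was -0.12 to 0.86 without 1 array, the lowest without NFFSE replicate 1. With quantile normalization Hspa8 was -0.089 and Dnajb1 -0.088, and without 1 array Hspa8 was -0.014 to 0.22 and Dnajb1 -0.018 to 0.16. Hspe1 was 0.18 with centered arrays and -0.18 to 0.097 without 1 array. The causes were not tested.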
